A study of Rattus norvegicus with 18 samples.

Results

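Lgals3, Cd14, Csf1r and Lyz2 are genes by which macrophages are commonly recognized. They were followed in the middle of the rat femur without fracture and over the 6 weeks after a femoral fracture. All probe sets of each gene symbol were taken, whatever their signals, but the genes were chosen with earlier results of these data known. They are 4 of the 4737 genes named on the array, and were carried by 5 of the 8799 probe sets of the array, 2 of them for Cd14. Of these, 4 were among the 4669 probe sets bright enough to be tested, and the probe set of Csf1r was not.

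Macrophages are phagocytic cells that form from blood monocytes or persist in tissues. They enter a fracture early, clear the hematoma and dead tissue, and release cytokines. The receptor for macrophage colony-stimulating factor, Csf1r, keeps these cells and the precursors of osteoclasts alive. Cd14 binds bacterial endotoxin at the surface of monocytes and macrophages and passes it to Toll-like receptor 4. Lgals3 encodes galectin-3, a lectin that binds galactosides. It is abundant in macrophages and is also made by other cells, among them chondrocytes and fibroblasts. Lyz2 encodes lysozyme, which cleaves bacterial cell walls and is stored by macrophages, monocytes and granulocytes.

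The rats were female Sprague-Dawley rats, young (6 weeks old), adult (26 weeks) or older (52 weeks) when the femur was broken around an intramedullary rod. Femora were taken with no fracture, from rats described as sham controls, or 3 days and 1, 2, 4 or 6 weeks after it. Each sample was the middle of the femur around the fracture, with callus, cortical bone and marrow together, with RNA pooled from 2 rats. There was 1 array per age and time, 18 in all. A time point was therefore 3 arrays of different ages, and an age after fracture was 5 arrays of different times. The p-values measure the spread between such arrays and not between rats of 1 age.

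Signals are in arbitrary units after scaling, with medians of 137.2 to 182.6 per array. On the first principal component (43.4% of the variance) the older 1 week array lay at 33.4, among the 3 days arrays at 32.5 to 39.5, and the young 6 weeks array lay at -34.7, among the no fracture arrays at -42.9 to -27.8. The young 6 weeks array also had a 5' to 3' Gapdh ratio, a sign of RNA integrity, of 0.257, against 0.650 to 0.913 on the others. Both arrays were kept, and calls that were lost without them are named beside the result.

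The label was checked with a list of 39 other macrophage genes. On the array 15 of them were annotated, and 11 were tested. Their summed signal was 9157 to 10141.9 on the 3 days arrays, against 7174.4 to 9773.1 on the no fracture arrays, so that the ranges overlapped. Lpl, lipoprotein lipase, which fat cells also make, was in the sum. It averaged 3159 with no fracture and 1015 at 3 days, so that its fall offset rises of other genes in the sum. Cd68, Adgre1, Mrc1 and Msr1 carried no probe set here. Itgam, the integrin chain of Mac-1, reached 74.7 at most, and Cx3cr1, the fractalkine receptor, reached 180.6. Ctss, the lysosomal protease cathepsin S, was bright, with 3027 ± 504 at 3 days and 1173 ± 487 with no fracture (SD, n = 3 arrays each).

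**Figure D1:**
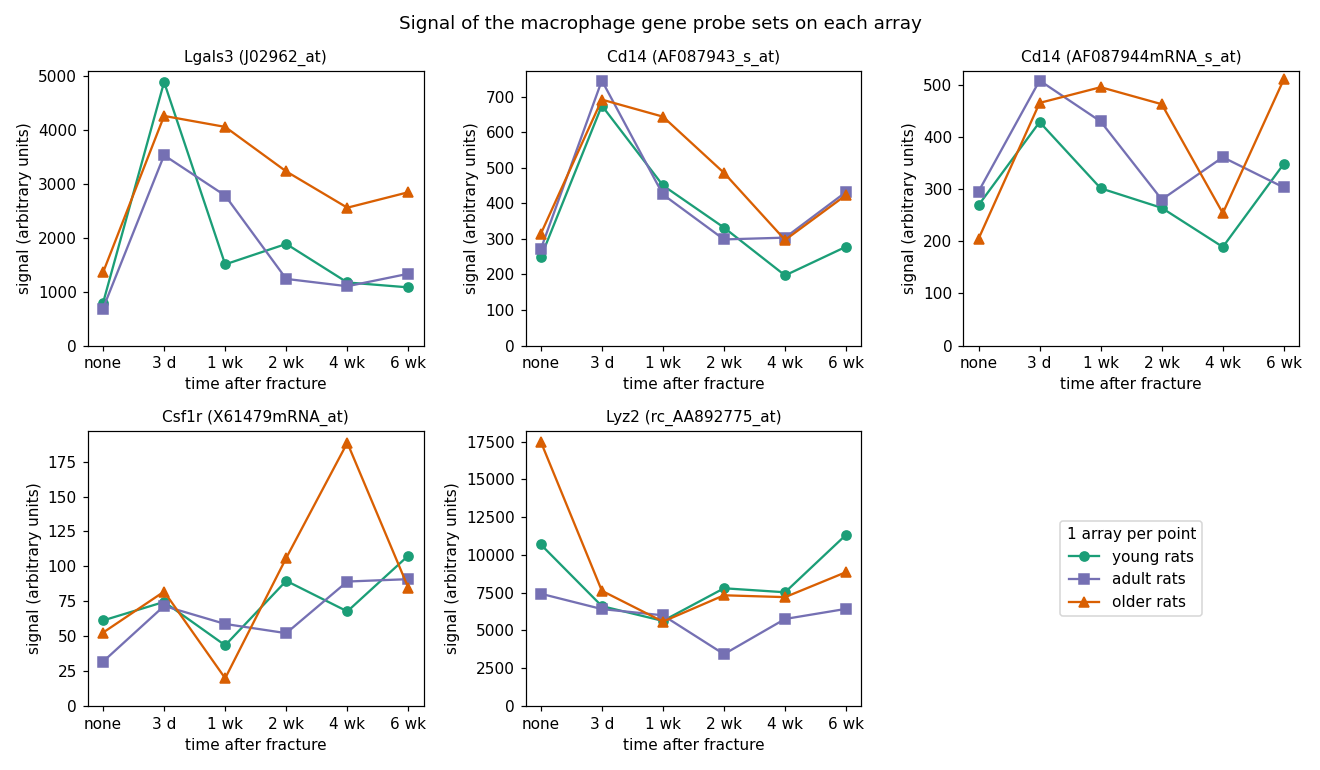
Signal (arbitrary units, linear axis from 0) of the 5 probe sets against time after fracture in young, adult and older rats, 1 array per point. Lgals3 was at 3531.5 to 4889 at 3 days, above the 689 to 1356.9 with no fracture, whereas Lyz2 was at 6412.7 to 7624.6 at 3 days and reached 17502.2 with no fracture in older rats.

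Csf1r, the receptor on which macrophages depend, was dim throughout. In young rats its signal was 61.2 with no fracture, 74.5 at 3 days, 43.4 at 1 week, 89.6 at 2 weeks, 67.7 at 4 weeks and 107.7 at 6 weeks. In adult rats it was 31.7, 71.6, 58.7, 52.1, 89.1 and 90.8 at the same times, and in older rats 52.5, 81.9, 19.8, 106.0, 188.5 and 84.5. The signal lay below the floor of 100 on 15 of the 18 arrays and never reached 200, so that no fold change was fitted. At 3 days the 3 arrays, at 71.6 to 81.9, all lay above the 3 no fracture arrays at 31.7 to 61.2, but all 6 were below the floor. The Csf1r gene (gene ID 307403) lies on chromosome 18 at 56834152 to 56860804 of the GRCr8 assembly.

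Ligands of this receptor and factors that recruit monocytes were listed beside it. A list of 13 ligands and recruitment factors had 9 genes on the array, and 6 were tested. Csf1, the ligand itself, was not called at any time, with log2 fold changes between -0.12 and 0.42. Ccl2, the chemokine that draws monocytes out of the marrow and blood, had a mean signal of 1599 ± 248 at 3 days, against 151.5 ± 66.6 with no fracture (SD, n = 3). It was up-regulated 11.0-fold at 3 days (log2 3.46 ± 0.31 SE) and 3.86-fold at 2 weeks (1.95 ± 0.31), fitted to log2 values in which 1 no fracture array was set to the floor. Mif, a cytokine that holds macrophages in place, rose 1.89-fold at 3 days (0.92 ± 0.16), and Icam1, an adhesion molecule of endothelium and leukocytes, rose 2.08-fold at 2 weeks (1.06 ± 0.28). Of the 6, 2 rose and 1 fell at 3 days, with a median log2 change of 0.22 beside 0.01 over all probe sets tested. Of all probe sets tested, 24.5% rose and 19.7% fell at that time.

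Cd14 was measured by 2 probe sets, AF087943_s_at and AF087944mRNA_s_at, both annotated to gene ID 60350 on chromosome 18 at 28609558 to 28611409 of GRCr8. On the first the signal in young rats was 248.1 with no fracture, 674.7 at 3 days, 450.4 at 1 week, 331.8 at 2 weeks, 197.4 at 4 weeks and 278.2 at 6 weeks. In adult rats it was 271.1, 745.3, 424.9, 298.6, 303.6 and 432.2, and in older rats 314.0, 691.6, 643.7, 485.7, 297.1 and 423.5. The signals at 3 days and at 1 week did not overlap those with no fracture, and those at 4 weeks did.

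The second Cd14 probe set followed the same outline with a smaller range. In young rats it gave 269.2, 428.5, 301.5, 264.0, 189.1 and 348.6, in adult rats 295.4, 508.1, 429.6, 280.0, 361.1 and 303.1, and in older rats 204.7, 465.2, 495.3, 462.7, 253.9 and 510.7, in the same order of times. The 3 days arrays lay above the no fracture arrays on this probe set too. Across the 18 arrays the log2 signals of both probe sets had a Pearson r of 0.80, which describes arrays that share scaling and tissue make-up. Their fold changes are given separately.

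At 3 days Cd14 was up-regulated 2.54-fold on the first probe set (log2 1.35 ± 0.21 SE, limma adjusted p = 0.00019) and 1.84-fold on the second (0.88 ± 0.27, adjusted p = 0.0166). At 1 week the first was still up-regulated, 1.80-fold (0.85 ± 0.21, adjusted p = 0.00846). The second, at 0.66 ± 0.27, missed the threshold (adjusted p = 0.0907). From 2 weeks on neither was called, with log2 differences of 0.40 and 0.36 at 2 weeks, -0.082 and 0.030 at 4 weeks, and 0.42 and 0.58 at 6 weeks. The call of the second probe set at 3 days was lost without the older no fracture array (0.60, adjusted p = 0.0967), without the young 3 days array (0.82, 0.0560) and without the adult 3 days array (0.84, 0.0570).

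In the order of mean signals on the first Cd14 probe set, 3 days came first at 704 ± 36.9 (SD, n = 3), followed by 1 week at 506 ± 120, 6 weeks at 378 ± 86.5, 2 weeks at 372 ± 99.8, no fracture at 278 ± 33.4 and 4 weeks at 266 ± 59.5. No pair of neighbours in this order differed beyond its spread, with limma adjusted p = 0.164 for 3 days and 1 week and 0.217 to 0.958 for the others. Farther apart, 3 days lay above 2 weeks (adjusted p = 0.0182), 4 weeks (0.000508) and 6 weeks (0.00469), and 1 week above 4 weeks (0.0232). The log2 difference of 6 weeks from 3 days was -0.92 ± 0.21. On the second probe set this difference was -0.30 ± 0.27 and was not called (adjusted p = 0.396), and 1 of the 10 pairs of times after fracture was, 4 weeks below 3 days (0.0355).

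The partners through which Cd14 signals were represented by 6 of 15 listed genes, of which 4 were tested. Tlr4, the receptor that Cd14 serves, reached 154.8 at most and was not tested. Lbp, which carries endotoxin to Cd14, rose 1.63-fold at 3 days, with a mean signal of 512.1 ± 58.2, against 326 ± 122 with no fracture (log2 0.71 ± 0.25, limma adjusted p = 0.0291). Nfkbia, the inhibitor that NF-kappaB itself induces, rose 1.85-fold at 2 weeks, with 1068 ± 83.5, against 576 ± 25.3 with no fracture (0.89 ± 0.22, adjusted p = 0.00934). At each of 3 days, 1 week, 2 weeks and 4 weeks 1 of the 4 rose, and at 6 weeks 0 did. Over all probe sets tested, 24.5% rose at 3 days, 14.3% at 1 week and 12.8% at 2 weeks. At 4 and 6 weeks 6.49% and 4.39% of all were called in either direction. The median log2 change of the 4 at 3 days was 0.19, beside 0.01 over all.

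Lgals3, measured by J02962_at (gene ID 83781, chromosome 15 at 23099795 to 23111731 of GRCr8), had the widest range of the 4 tested probe sets, 7.10-fold from the lowest to the highest array. In young rats its signal was 791.1 with no fracture, 4889 at 3 days, 1507.4 at 1 week, 1886.7 at 2 weeks, 1172.1 at 4 weeks and 1080.8 at 6 weeks. In adult rats it was 689, 3531.5, 2783.7, 1237.9, 1101.9 and 1333.6. In older rats it was 1356.9, 4261.4, 4057.5, 3231.8, 2558.9 and 2846.4. At every age the no fracture array was the lowest of the 6, and the 3 days array was the highest. The 3 days signal was 6.18 times that with no fracture in young rats, 5.13 times in adult rats and 3.14 times in older rats, 1 array each.

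The fitted rise of Lgals3 at 3 days was 4.63-fold (log2 2.21 ± 0.29 SE, limma adjusted p = 4.5e-05), and this log2 change stood at percentile 97.5 of all probe sets tested. It was 2.85-fold at 1 week (1.51 ± 0.29, adjusted p = 0.00132) and 2.17-fold at 2 weeks (1.12 ± 0.29, adjusted p = 0.0114). At 4 weeks it was 0.72 ± 0.29 on the log2 scale (adjusted p = 0.160) and at 6 weeks 0.82 ± 0.29 (adjusted p = 0.120), and neither was called. The intervals at these times, 0.11 to 1.33 and 0.21 to 1.44 (unadjusted 95%), left room for a level above that with no fracture. The call at 2 weeks was lost without the young 2 weeks array (0.98, adjusted p = 0.0583) and without the older 2 weeks array (1.04, adjusted p = 0.0591), and also without the age term (0.109).

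By mean signal the order of times for Lgals3 was 3 days at 4227 ± 679 (SD, n = 3), 1 week at 2783 ± 1275, 2 weeks at 2119 ± 1017, 6 weeks at 1754 ± 955, 4 weeks at 1611 ± 822 and no fracture at 946 ± 360. Neighbouring times after fracture did not differ beyond their spread, with limma adjusted p = 0.150 for 3 days and 1 week and 0.606 to 1 for the later neighbours. Farther apart, the 3 days level lay above that at 2 weeks (adjusted p = 0.0384), 4 weeks (0.00240) and 6 weeks, where the log2 difference of 6 weeks from 3 days was -1.39 ± 0.29 (0.00244).

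Of 8 other galectin genes listed, 6 were on the array and 4 were tested. Lgals1, galectin-1, a lectin of connective tissue, was the one called at 3 days, 1 week and 2 weeks. Its mean signal was 16390 ± 1268 at 3 days, against 3820 ± 1821 with no fracture, a rise of 4.75-fold (log2 2.25 ± 0.39, limma adjusted p = 0.00035). At 2 weeks it was up 2.85-fold (1.51 ± 0.39, adjusted p = 0.0111). The median log2 change of the 4 at 3 days was 0.41, beside 0.01 over all probe sets. Of all probe sets tested, 24.5% rose at 3 days, 14.3% at 1 week and 12.8% at 2 weeks.

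Lyz2, measured by rc_AA892775_at (gene ID 25211, chromosome 7 at 54792715 to 54798060 of GRCr8), ran the other way. In young rats its signal was 10692 with no fracture, 6609 at 3 days, 5628.3 at 1 week, 7790.7 at 2 weeks, 7525.5 at 4 weeks and 11337.7 at 6 weeks. In adult rats it was 7430.1, 6412.7, 5999.4, 3426.2, 5757.3 and 6427.7. In older rats it was 17502.2, 7624.6, 5582.2, 7326, 7203.4 and 8861.8. The no fracture array was the brightest of the 6 in adult and older rats, and in young rats the 6 weeks array was. That young 6 weeks array is the one with the low 5' to 3' Gapdh ratio. The 3 arrays of 1 week lay close together, at 5582.2 to 5999.4, all below the no fracture arrays.

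Lyz2 was down-regulated 1.63-fold at 3 days (log2 -0.70 ± 0.25 SE, limma adjusted p = 0.0337), 1.95-fold at 1 week (-0.96 ± 0.25, adjusted p = 0.0108) and 1.92-fold at 2 weeks (-0.94 ± 0.25, adjusted p = 0.0139). At 4 weeks the log2 difference was -0.72 ± 0.25 (adjusted p = 0.110) and at 6 weeks -0.37 ± 0.25 (adjusted p = 0.451). These calls rested on the older no fracture array, at 17502.2. Without it the log2 differences were -0.43 at 3 days (adjusted p = 0.183), -0.69 at 1 week (0.0660) and -0.68 at 2 weeks (0.0832). The call at 3 days was also lost without the young 3 days array (0.124) or the older 3 days array (0.0817) under quantile normalization (0.0588) and with no filter (0.0810), and the call at 2 weeks without the adult 2 weeks array (0.0953). Without the age term the adjusted p was 0.0953 at 3 days and 0.0539 at 2 weeks. The call at 1 week was lost without the older 1 week array (-0.82, adjusted p = 0.0669) and without both arrays that stood apart (-0.80, 0.0667). Among the times after fracture, 0 of the 10 pairs differed by limma, where the lowest adjusted p was 0.171.

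The stretch before the start of Lyz2 is shown because this gene moved against Lgals3 and Cd14. It is the reference sequence of RefSeq (GRCr8), minus strand, chr7:54798012-54798261, the 250 bases before the transcript start that the promoter table of RefSeq uses. The capitals mark a match to GAGGAA, a core of sites of PU.1, a transcription factor of myeloid cells and B cells.

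Lyz2 upstream: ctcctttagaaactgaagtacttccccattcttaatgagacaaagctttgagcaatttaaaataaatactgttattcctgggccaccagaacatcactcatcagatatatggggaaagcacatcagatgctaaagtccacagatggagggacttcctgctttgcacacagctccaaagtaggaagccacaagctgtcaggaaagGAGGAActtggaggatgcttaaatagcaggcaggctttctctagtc

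The match begins 46 bases before that start. The annotated gene runs 49 bases farther upstream than that start, so that the match lies inside the gene as annotated. GAGGAA or its reverse complement was found in 27.6% of 33469 promoter windows of 300 bases, 250 before and 50 after each start, so that a match is common. The windows of Lyz2, Cd14 and Csf1r held 1, 2 and 2 matches, and none of these 3 held TGANTCA, an AP-1 motif found in 7.33% of windows. A match is a stretch of letters and not evidence of binding. The window was matched by symbol for 3 of the 4 genes.

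Lysozyme is also stored by granulocytes, and the neutrophil genes listed for them fell strongly. The list was chosen with earlier results of these data known. Of 18 listed, 10 were on the array and 9 were tested. At 3 days 7 fell and 0 rose, at 1 week 7 fell and 0 rose, at 2 weeks 6 fell and 1 rose, at 4 weeks 3 fell, and at 6 weeks 0 were called. Over all probe sets tested, 19.7% fell at 3 days, 10.5% at 1 week and 8.27% at 2 weeks. S100a8, a subunit of the neutrophil protein calprotectin, averaged 742 ± 1036 at 2 weeks, against 14387 ± 6857 with no fracture (log2 -5.30 ± 0.86, limma adjusted p = 0.00073). Its partner S100a9 changed by -5.26 ± 0.71 and the defensin RatNP-3b by -5.27 ± 0.74. At 3 days the log2 changes were -4.15 ± 0.59 for the defensin Defa5, -3.97 ± 0.71 for S100a9 and -3.90 ± 0.86 for S100a8. The summed signal of the 10 genes was 2605.7 to 17813.6 at 3 days, 5879.5 to 10674.5 at 1 week and 6871 to 17302.9 at 2 weeks, against 46474.7 to 91175.8 with no fracture. Mmp9, also in the sum, averaged 1163 with no fracture, 721 at 3 days, 3446 at 1 week and 7406 at 2 weeks. The means of S100a8, S100a9, RatNP-3b and Defa5 were 742, 534, 1278 and 232 at 2 weeks. These lay below their means at 3 days of 1502, 1147, 2946 and 571, so that the sum did not follow these genes alone. The older no fracture array, with the brightest Lyz2 signal, also had the highest sum.

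Across the 18 arrays the log2 signal of Lyz2 had a Pearson r of 0.68 with the summed neutrophil signal, and Lgals3 had -0.67 and the first Cd14 probe set -0.67. The size of the Lyz2 value was not particular to neutrophils. Lyz2 had -0.67 with the cartilage sum, -0.60 with that of macrophage products, 0.59 with the erythroid sum and -0.585 with that of other galectins. These are descriptions over arrays that share time points and scaling, and each sum leans on its brightest genes. The part of neutrophils in the Lyz2 result was not tested. In a bulk sample of callus, bone and marrow, fewer cells of a type and less RNA per cell cannot be told apart.

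**Figure D2:**
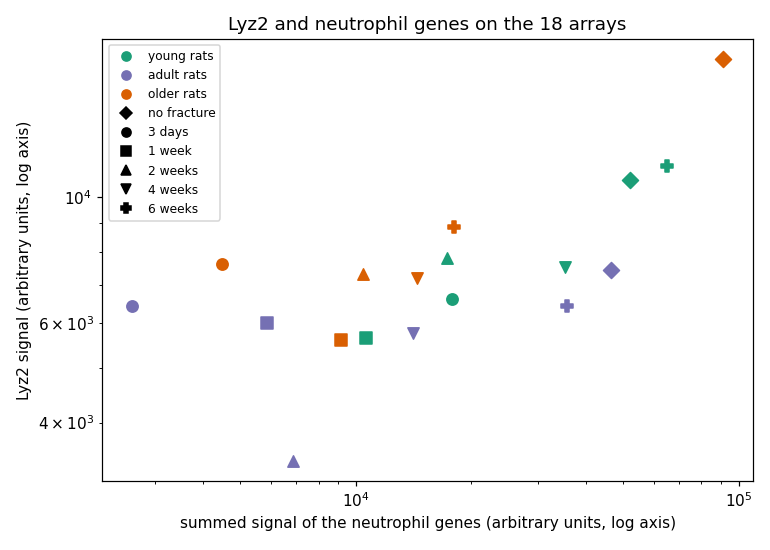
Lyz2 signal against the summed signal of the 10 neutrophil genes on the 18 arrays (arbitrary units, both axes logarithmic), with age by color and time by marker. The sum includes Mmp9, which averaged 7406 at 2 weeks and 1163 with no fracture. The older no fracture array lies at the top right, at 17502.2 for Lyz2 and 91175.8 for the sum, and the adult 2 weeks array lies lowest, at 3426.2.

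Set side by side, 3 of the 4 tested probe sets of these genes were up-regulated at 3 days and 1 was down-regulated, and over all probe sets tested 24.5% were up-regulated and 19.7% down-regulated. At 1 week 2 were up-regulated and 1 down-regulated (over all, 14.3% and 10.5%). At 2 weeks 1 was up-regulated and 1 down-regulated (over all, 12.8% and 8.27%). At 4 weeks 0 of the 4 were called by limma (6.49% of all in either direction) and at 6 weeks 0 (4.39% of all), while 2 and 1 had an unadjusted p under 0.05. At 6 weeks 2 were lower than at 3 days, Lgals3 and the first Cd14 probe set, where 18.7% of all probe sets were. By the methods' t-test on the same values, 3 of the 4 passed at 3 days and 0 at each later time. All comparisons with no fracture share the same 3 no fracture arrays.

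**Figure D3:**
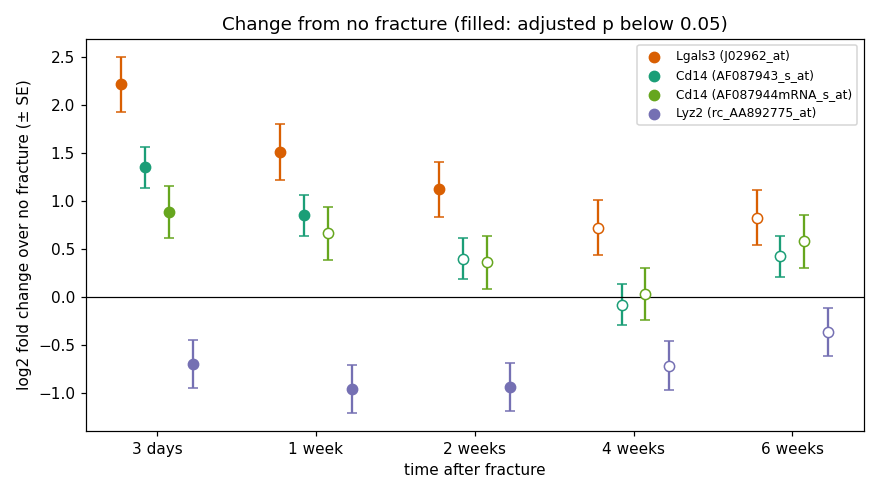
Log2 fold change from no fracture (limma, ± SE) of the 4 tested probe sets at each time after fracture, filled where the adjusted p was below 0.05. Lgals3 stood at 2.21 at 3 days and at 0.72 at 4 weeks, the Cd14 probe sets at -0.082 and 0.030 at 4 weeks, and Lyz2 lay below 0 at all 5 times.

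Other macrophage genes gave a mixed picture. Of the 11 tested, 3 rose and 1 fell at 3 days, 3 rose at 1 week, 4 rose at 2 weeks and 2 rose at each of 4 and 6 weeks. Their median log2 change at 3 days was 0.45, beside 0.01 over all probe sets. Of all probe sets tested, 24.5% rose and 19.7% fell at 3 days, and 14.3% and 12.8% rose at 1 and 2 weeks. At 4 and 6 weeks 6.49% and 4.39% of all were called in either direction. Plin2, which coats lipid droplets, rose 3.68-fold at 3 days, with 2122 ± 250 against 602 ± 240 with no fracture (log2 1.88 ± 0.27 SE, limma adjusted p = 9e-05), and 2.17-fold at 2 weeks. Ctss rose 2.71-fold at 3 days (1.44 ± 0.24, adjusted p = 0.00031) and 2.09-fold at 2 weeks. Lpl, lipoprotein lipase, which fat cells also make, fell 2.56-fold at 3 days, with 1015 ± 35.4 against 3159 ± 2287 with no fracture (-1.36 ± 0.38, adjusted p = 0.00901). Clec10a rose 2.33-fold at 3 days, with 334 ± 66.4 against 145 ± 39.1 with no fracture (1.22 ± 0.21, limma adjusted p = 0.00033). It was also called higher at 2, 4 and 6 weeks. Mmp12 lay below the floor on all no fracture arrays and rose 3.19-fold at 1 week on floored values (1.67 ± 0.50, limma adjusted p = 0.0222). The complement genes C1qb and C1qc and the marker Aif1 were not called against no fracture at any time.

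Products that macrophages can release, though other cells make them too, were 14 in the list, with 13 on the array and 8 tested. Of these, 4 rose at 3 days and 3 at each later time, and 0 fell. Over all probe sets tested, 24.5% rose at 3 days, 14.3% at 1 week and 12.8% at 2 weeks. At 4 and 6 weeks 6.49% and 4.39% of all were called in either direction. Spp1, osteopontin, averaged 8678 ± 2341 at 3 days, against 1657 ± 1623 with no fracture (log2 2.81 ± 0.36 SE, limma adjusted p = 4e-05). Apoe, the lipid carrier apolipoprotein E, averaged 13094 ± 2768 at 3 days, against 3033 ± 821 with no fracture (2.13 ± 0.25, adjusted p = 3e-05). At 2 weeks the log2 changes were 3.11 ± 0.36 for Spp1 and 1.93 ± 0.25 for Apoe. Il6, an inflammatory cytokine, averaged 654 ± 372 at 3 days and lay below the floor on all 3 no fracture arrays, so that its rise was at least 5.69-fold on floored values. Tnf, at 27.6 at most, Il10 and Ccl3 were too dim to test.

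Cells of the same lineage or of the callus were listed as well. For the counts that follow, 24.5% of all probe sets tested rose and 19.7% fell at 3 days. At 1 week 10.5% of all fell, and at 2 weeks 12.8% rose and 8.27% fell. Of 5 tested osteoclast genes, 3 rose and 1 fell at 2 weeks. Ctsk, the collagen-degrading protease of osteoclasts, averaged 15877 ± 1643 at 2 weeks, against 902 ± 813 with no fracture (log2 4.53 ± 0.47 SE, limma adjusted p = 6e-05). It was up by 2.22 ± 0.47 at 3 days. Acp5, the acid phosphatase of osteoclasts, rose by 3.75 ± 0.61 on the log2 scale at 2 weeks, and Mmp14, a membrane metalloproteinase of many cells, by 2.66 ± 0.51 at 2 weeks and 2.33 ± 0.51 at 3 days. Car2, carbonic anhydrase 2, which red cells also hold, changed by -4.37 ± 0.43 at 3 days. Of 7 tested antigen presentation genes, 3 rose at 3 days and 4 at 2 weeks, among them Cd74, the class II invariant chain, which rose 1.77-fold at 3 days (0.82 ± 0.27, adjusted p = 0.0243) and 1.96-fold at 2 weeks. The class II genes RT1-Bb and RT1-Db1 rose by 1.29 ± 0.29 and 0.74 ± 0.26 on the log2 scale at 3 days and by 1.10 ± 0.29 and 0.89 ± 0.26 at 2 weeks. All 5 tested cartilage genes rose at 2 weeks, led by the collagens Col2a1 (6.11 ± 1.09) and Col10a1 (5.18 ± 0.67) and by Comp (3.33 ± 0.49), and 3 of the 5 rose at 3 days, Acan (3.47 ± 0.61), Col11a1 (3.05 ± 0.51) and Comp (2.17 ± 0.49). These are log2 values on which 1 or 2 no fracture arrays were set to the floor. All 5 tested erythroid genes fell at 3 days, 1 week and 2 weeks. Slc4a1, the band 3 protein, changed by -5.06 ± 0.71 at 3 days and -3.80 ± 0.71 at 2 weeks, the globin gene Hba-a3 by -5.04 ± 0.70 and -3.66 ± 0.70, and Alas2, of heme synthesis, by -4.33 ± 0.57 and -2.99 ± 0.57. Of the 3 tested lymphocyte genes, 1 fell at 3 days, and of the 5 tested mast cell genes, 1 fell, the chymase Cma1 (-2.81 ± 0.49).

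Age was compared over the 15 arrays after fracture. Lgals3 averaged 3391 ± 744 in older rats, 1998 ± 1094 in adult rats and 2107 ± 1587 in young rats (SD, n = 5 arrays each). Older rats had the highest signal of the 3 ages at 1, 2, 4 and 6 weeks and with no fracture, and young rats had it at 3 days. The older over young signal was 1.72 with no fracture, 0.872 at 3 days, 2.69 at 1 week, 1.71 at 2 weeks, 2.18 at 4 weeks and 2.63 at 6 weeks. The 1 week and 6 weeks ratios rest on the older 1 week and young 6 weeks arrays, which stood apart. The older arrays after fracture, at 2558.9 to 4261.4, overlapped with the young arrays, at 1080.8 to 4889, through the 3 days array of the young rats.

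The log2 difference of Lgals3 between older and young rats was 0.91 ± 0.23 SE and missed the threshold (limma adjusted p = 0.0643), as did all 4 tested probe sets of these genes, where 0.15% of all probe sets were called in either direction. At an unadjusted p under 0.05, 3 of the 4 passed. The Lgals3 difference passed without the young 3 days array (1.10, adjusted p = 0.0256) or without the older 3 days array (1.12, 0.00671). Between older and adult rats the difference was 0.90 ± 0.23, or 1.87-fold, with an adjusted p of 0.0457 by limma. It was the 1 call of the 4 in that comparison, where 2.38% of all probe sets were higher in older rats. This call was lost without both arrays that stood apart (0.87, adjusted p = 0.134) and with equal array medians (0.73, 0.0605), and without any of 9 of the 15 arrays, namely the young 4 weeks array and the adult and older arrays of 1, 2, 4 and 6 weeks (adjusted p between 0.0598 and 0.160). Adult and young rats differed by 0.00 ± 0.23 (adjusted p = 0.995), with an unadjusted 95% interval of -0.48 to 0.49, and 0 of the 4 probe sets were called, as were 0% of all. At an unadjusted p under 0.05, 1 of the 4 passed, Lyz2.

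Within periods, Lgals3 in older rats exceeded that in young rats by 1.10 ± 0.31 on the log2 scale at 1 and 2 weeks (limma adjusted p = 0.159) and by 1.26 ± 0.31 at 4 and 6 weeks (0.0574). Neither passed the threshold, and 0.514% and 2.81% of all probe sets did. The difference between both periods was 0.16 ± 0.44 (adjusted p = 0.968). The age difference after fracture exceeded that with no fracture by 0.13 ± 0.56 (adjusted p = 0.931). The unadjusted 95% interval of this departure, -1.07 to 1.33, is wide, since each age had 1 no fracture array. In these last 2 comparisons 0 of the 4 probe sets were called, beside 0% and 2.55% of all, and 0 had an unadjusted p under 0.05.

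**Figure D4:**
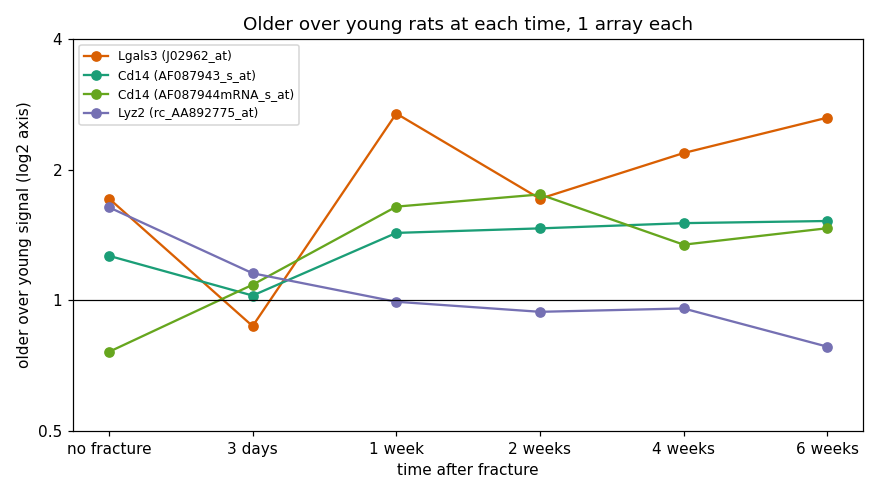
Older over young signal at each time, 1 array each (log2 axis), for the 4 tested probe sets, with a line at equal signals. Lgals3 lay at 2.69 at 1 week and 2.63 at 6 weeks but at 0.872 at 3 days, while Lyz2 lay at or below 1 from 1 week on. Those 1 week and 6 weeks ratios rest on the older 1 week and young 6 weeks arrays, which stood apart. For Lgals3 the ratio was 1.71 at 2 weeks, 2.18 at 4 weeks and 1.72 with no fracture.

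Cd14 showed no called age difference. On the first probe set older rats exceeded young rats by 0.46 ± 0.17 on the log2 scale (limma adjusted p = 0.152) and on the second by 0.52 ± 0.19 (0.149). Against adult rats the differences were 0.23 and 0.21. Lyz2 was at 7320 ± 1173 in older rats, 5605 ± 1251 in adult rats and 7778 ± 2164 in young rats after fracture (SD, n = 5 arrays each). Its log2 difference was -0.063 ± 0.17 between older and young rats (adjusted p = 0.881) and 0.41 ± 0.17 between older and adult rats (0.159), and -0.47 ± 0.17 between adult and young rats (0.284). With no fracture the older array, at 17502.2, lay above the young array at 10692 and the adult array at 7430.1.

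Cartilage genes were higher in older rats in the late weeks, when Lgals3 also was brightest in older rats. Of the 5 tested, 4 were called higher in older than in young rats at 4 and 6 weeks, and 0 at 1 and 2 weeks. Over all probe sets tested, 2.81% and 0.514% were called in either direction in these periods. The summed signal of the 6 cartilage genes at 4 weeks was 2701.2 in young rats, 9490.3 in adult rats and 12073.4 in older rats, and at 6 weeks it was 1223.5, 3486.5 and 8501.2. At 1 week it was 10431.7 in young rats, 11844.1 in adult rats and 18443.6 in older rats, and at 2 weeks 24540.2, 17131.7 and 23477.5, so that older rats were highest at 1, 4 and 6 weeks and young rats at 2 weeks. With no fracture the cartilage sum was 2218 in young rats, 400.4 in adult rats and 264.5 in older rats, whereas Lgals3 was brightest in older rats. At 3 days the cartilage sum was 4987.1, 6120.1 and 3781.8, again lowest in older rats. Across the 18 arrays Lgals3 had a Pearson r of 0.51 with the cartilage sum. The r was 0.58 with the sum of the 15 other macrophage genes, Lpl among them, and 0.62 with that of macrophage products. With the sums of other galectins and of recruitment genes it was 0.855 and 0.89. These sums lean on their brightest genes. At 3 days Lgals1 averaged 16390 where the galectin sum was 17720.4 to 20280.2. Mif averaged 5606 where the recruitment sum was 7914.8 to 8748.3. Apoe and Spp1 were the brightest of the macrophage products. The other macrophage sum was also higher in older than in young rats at 1 week (10800.7 and 9214.5) and 2 weeks (10579.2 and 9460.1). The same held at 4 weeks (11193.2 and 10283) and 6 weeks (11459.1 and 8891.1). The part of cartilage, or of macrophages, in the Lgals3 age difference was not tested. Among the recruitment genes, Ccl2 was the 1 called between older and adult rats, higher in older rats by 1.16 on the log2 scale (2.38% of all probe sets were higher). Of the 11 tested other macrophage genes, 0 were called between ages after fracture. Plin2 was higher in older than in young rats by 0.81 ± 0.21 (limma adjusted p = 0.0643). In the departure of this age difference from that with no fracture, with 1 no fracture array per age, 2 of the 11 were called lower. They included Aif1 (-1.77 ± 0.40, limma adjusted p = 0.0302), where 2.55% of all were called in either direction.

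Likeness to each gene was measured by the Pearson r of log2 signals over the 18 arrays, as a description. Closest to Lgals3 were Litaf (0.93), a lipopolysaccharide-induced factor, the chemokine gene Ccl2 (0.93), Csrp1 (0.92), Msmo1 (0.92) and P4hb (0.92). Closest to the first Cd14 probe set were Ccl2 (0.90), Pgam1 (0.89), Crabp2 (0.88), Cttn (0.87) and Ptgs2 (0.86), the inducible cyclooxygenase. The second Cd14 probe set was most like Ptprn (0.83), Ormdl3 (0.82), Dad1 (0.81), Fst (0.80) and Ccl2 (0.80). Closest to Lyz2 were B4galt6 (0.92), Coro1a (0.90), an actin-binding protein of leukocytes, Tap1 (0.90), Arrb2 (0.88) and Rgs18 (0.88). Lgals3 and the first Cd14 probe set had an r of 0.84 with each other, and Lyz2 had -0.20 with Lgals3 and -0.26 with that probe set.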

How the data were processed

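Femoral RNA was hybridized to 18 Affymetrix rat arrays. The deposited intensities are signals of Microarray Suite 5.0 that the authors scaled to an average of 500, and trimmed means (2% at each end) were 500.6 to 500.9. Arrays of further series of the study were not used here, nor were present and absent calls. The labels give age and time and number no replicates. Symbols came from the platform annotation, updated through gene identifiers. Signals below 100 were set to 100 before log2, and probe sets other than the 59 controls reaching 200 on at least 3 arrays entered the tests.

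Times were compared with limma 3.58.1 (R 4.3.3), by two-sided moderated tests after lmFit and eBayes with an intensity trend, with time and age as terms on 18 arrays, and ages with age and time on the 15 arrays after fracture. Periods used the 12 arrays of 1 to 6 weeks, and the departure from no fracture an age by fracture term on 18. P-values were adjusted over the 4669 probe sets by the Benjamini-Hochberg procedure, with a threshold of 0.05. Medians of lists are of log2 fold changes, taking the brightest probe set of each gene. From each list up to 3 called genes with the largest change at 3 days and up to 3 at 2 weeks, with a mean of 500 or more in the higher group, are named. Csf1, C1qb, C1qc, Aif1, Clec10a, Mmp12, Mmp9, Tlr4, Tnf, Il10, Ccl3, Itgam and Cx3cr1 fall outside that rule. So do the age differences of Ccl2, Plin2 and Aif1, and all of these were named after their values were seen. The genes and lists were chosen with earlier results of these data known.

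Alternatives were floors of 20 and 200, equal array medians, quantile normalization, a filter at 500 or none, robust moderation, no age or time term, the arrays of the compared groups alone, the methods' t-test, and each array left out. Leaving out both arrays that stood apart was chosen after seeing the data. Steps were tested on simulated data. Promoter windows and gene positions came from RefSeq. Plots used matplotlib 3.10.9 under Python 3.11.15.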

Additional observations from a re-analysis of the deposited data

Results flagged for a closer look

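In 3 of the 15 groups of 5 arrays after fracture, formed by age and probe set, 1 array stood apart from the other 4 by more than Dixon's 95% critical value (0.71). Chance gives such an array in about 1 in 20 groups. For Lgals3 in young rats the 3 days array, at 4889, lay above the other 4. For the Cd14 probe set AF087944mRNA_s_at in older rats the 4 weeks array, at 253.9, lay below the others. For Lyz2 in adult rats the 2 weeks array, at 3426.2, lay below the others. The arrays of such a group differ in time after fracture, so that each also carries its time.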

How the results depend on the processing

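No paired analysis was possible because the labels number no replicates, beyond the age term of the fit, which sets times against each other within an age. Over 52 fold changes and 1327 settings, 1238 kept direction and side of the threshold, 47 lost the call, 8 gained it and 34 changed sign, all of these for differences that were not called. The cause of these changes was not tested, other than that leaving out arrays or terms leaves fewer arrays or more spread. The number of these probe sets called (4 at 3 days, 3 at 1 week, 2 at 2 weeks) became 2, 1 and 1 with the 6 arrays of both times alone and, at 1 and 2 weeks, 0 by the methods' t-test, and 0 at 2 weeks without the age term. Leaving out 1 array gave 2 to 4 at 3 days and 1 to 2 at 2 weeks. For 6 weeks against 3 days the t-test gave 0. The 1 call of older against adult became 0 with a floor of 20 or 200, no filter, equal array medians, no time term, the t-test, or neither array that stood apart, and 0 to 1 without 1 array. Older against young gave 0 to 1 without 1 array, both after fracture and in each period, and 1 under quantile normalization at 4 and 6 weeks.

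Small differences changed sign. For Cd14 (AF087944mRNA_s_at) at 4 weeks the log2 difference was -0.084 under quantile normalization, -0.11 with equal medians and -0.25 to 0.21 without 1 array, and on AF087943_s_at it was -0.21 to 0.029. For Lyz2 older against young it was 0.084 (quantile), 0.095 (without both arrays that stood apart) and -0.15 to 0.030 without 1 array, at 1 and 2 weeks 0.037, 0.23 and -0.39 to 0.29, and at 4 and 6 weeks 0.055 under quantile normalization. For Lgals3 adult against young it was -0.099 without both arrays and -0.17 to 0.20 without 1 array. For the difference between periods, Cd14 (AF087943_s_at) gave -0.092 (quantile) and -0.052 (medians), AF087944mRNA_s_at -0.62 to 0.072 without 1 array, Lgals3 -0.054 without both arrays and -0.38 to 0.70 without 1 array, and Lyz2 0.018 (quantile) and -0.50 to 0.18 without 1 array. For the departure from no fracture, without both arrays Cd14 (AF087943_s_at) gave -0.020 and Lgals3 -0.0086, and Lgals3 -0.048 to 0.34 without 1 array. That departure cannot be estimated without a no fracture array.

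Over all probe sets, the calls ranged with the settings and the array left out between 848 and 2118 at 3 days (2062 as given), 1 and 1224 at 1 week (1160), 18 and 1021 at 2 weeks (984), 0 and 409 at 4 weeks (303) and 0 and 287 at 6 weeks (205). For 6 weeks against 3 days they ranged between 531 and 1924 (1692). Between older and young rats after fracture the count was 0 to 457 (7), older against adult 0 to 640 (174), adult against young 0 to 23 (0), older against young at 1 and 2 weeks 0 to 151 (24) and at 4 and 6 weeks 0 to 323 (131), the difference of periods 0 to 5 (0) and the departure 82 to 281 (119). Equal array medians moved the median of all probe sets by -0.14 at 4 weeks, -0.10 for 6 weeks against 3 days, -0.13 for older against young, -0.17 for older against adult, -0.12 and -0.23 in the 2 periods and -0.12 for their difference. The share of calls that were higher was then 62.6% at 4 weeks (77.9% as given), 59.6% at 6 weeks (72.7%), 33.3% for older against young (57.1%), 20.1% for older against adult (63.8%), and 46.2% (70.8%) and 29.6% (67.2%) in the periods. Under quantile normalization it was 40% for older against young and 52.5% for older against adult. The few arrays limit the precision of all values.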
